A study of Mus musculus with 7 samples.

Results

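Heat shock proteins and their J-domain partners form the main protein-folding machinery of the cell, and the accessibility of their promoters was measured in young and aged mouse liver. The genes were chosen by symbol: every protein-coding gene of the mouse annotation named as a heat shock protein (Hspa, Hspb, Hspd, Hspe, Hsph or Hsp90), a heat shock factor (Hsf) or a DnaJ protein (Dnaja, Dnajb or Dnajc). This gave 78 genes. Of these, 67 had at least 1 accessible region that came within 200 bp of a transcription start site (TSS), upstream or downstream, and the 69 regions concerned were taken from 55680 regions in all, 13711 of which lay at protein-coding promoters. The 11 genes with no promoter region were Dnajb3, Dnajb7, Dnajb8, Dnajb13, Dnajc5b, Dnajc5g, Dnajc6, Hsf3, Hsf5, Hspb3 and Hspb7.

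Chromatin accessibility was profiled by ATAC-seq, in which a transposase inserts sequencing adapters into DNA that is not covered by nucleosomes. Nuclei were taken from liver tissue of male C57BL/6N mice, 3 samples from young animals of 3 months and 4 samples from aged animals of 18 months, with no treatment or transgene in either group. The design note of the series states that the 4 aged samples came from 3 animals, 1 of which gave 2 liver lobules, and does not say which samples these are, whereas the study's methods count all 4 as biological replicates. By that note the aged samples are not all independent, and p-values measure the spread between samples. Region totals ran from 4474652 to 25461110 counts per sample, and the 9 pairs of samples within an age all differed by more than sampling noise. All 6 hepatocyte marker genes examined, among them Alb and Apob, had a promoter region, as did 1 of 7 macrophage markers and none of 7 lymphocyte markers. In bulk tissue, fewer cells of a type and less accessibility per cell cannot be told apart. The summed promoter signal of the hepatocyte markers ran from 570 to 646 CPM, that is counts scaled to library size, in young samples and from 684 to 806 CPM in aged samples, but the ages overlapped at 7 of the 8 hepatocyte regions, and only Apoa1 passed the threshold, with a mean of 187 CPM in young and 271 CPM in aged samples. The 3 detected of 6 stellate cell markers summed to 26.6 to 29.1 CPM in young and 16.1 to 23.5 CPM in aged samples. Endothelial markers, with 65.1 to 73.6 and 52.2 to 87.3 CPM, and cholangiocyte markers, with 43.8 to 51.96 and 39.4 to 56.9 CPM, overlapped between the ages. The part of cell composition in the results that follow was not tested.

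The heat shock response is run by heat shock factors, of which HSF1 is the main stress-activated member. Under proteotoxic stress HSF1 forms trimers, binds inverted repeats of GAA called heat shock elements, and raises transcription of HSP70, HSP90, HSP110, HSP60 and small heat shock proteins. HSP70 proteins bind exposed stretches of unfolded protein in a cycle driven by ATP, J-domain proteins deliver clients and trigger hydrolysis, and HSP110 proteins exchange the nucleotide. The endoplasmic reticulum (ER) has its own set, headed by BiP (Hspa5) and GRP94 (Hsp90b1) and raised by the unfolded protein response. Hepatocytes secrete large amounts of plasma protein and rely on this ER set throughout life.

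The sequences just upstream of 4 chaperone genes carry elements known from these pathways, and those of Dnajb2 and Dnajc17 are given as the called genes for which a window was found. Each line holds the 250 bases before the RefSeq TSS (GRCm38.p6), read 5′ to 3′ on the strand of the gene. Capitals mark matches, on either strand, to the heat shock element GAANNTTCNNGAA, to the ER stress response element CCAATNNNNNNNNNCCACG and to CCAAT, which the ER stress response element contains.
Hspe1: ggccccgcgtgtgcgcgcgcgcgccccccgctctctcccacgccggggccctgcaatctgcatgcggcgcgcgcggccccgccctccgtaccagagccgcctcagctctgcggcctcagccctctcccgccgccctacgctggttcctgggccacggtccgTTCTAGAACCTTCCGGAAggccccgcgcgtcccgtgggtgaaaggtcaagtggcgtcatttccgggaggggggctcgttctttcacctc
Hspa5: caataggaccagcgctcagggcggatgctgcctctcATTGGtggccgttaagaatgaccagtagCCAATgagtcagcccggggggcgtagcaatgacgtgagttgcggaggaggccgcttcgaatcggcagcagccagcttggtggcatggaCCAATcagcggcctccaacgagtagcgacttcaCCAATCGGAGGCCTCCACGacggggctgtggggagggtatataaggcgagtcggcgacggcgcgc
Hsp90b1: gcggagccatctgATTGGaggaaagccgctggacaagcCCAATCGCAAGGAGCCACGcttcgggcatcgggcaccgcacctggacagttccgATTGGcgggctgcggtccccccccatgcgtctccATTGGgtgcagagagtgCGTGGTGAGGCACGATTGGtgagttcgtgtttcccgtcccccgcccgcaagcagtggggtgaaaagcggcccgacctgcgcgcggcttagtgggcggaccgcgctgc
Dnajc3: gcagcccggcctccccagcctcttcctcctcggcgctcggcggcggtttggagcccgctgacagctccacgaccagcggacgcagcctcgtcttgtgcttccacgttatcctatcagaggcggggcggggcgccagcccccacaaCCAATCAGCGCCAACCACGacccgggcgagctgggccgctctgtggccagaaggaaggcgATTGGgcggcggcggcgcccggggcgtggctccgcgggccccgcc
Dnajb2: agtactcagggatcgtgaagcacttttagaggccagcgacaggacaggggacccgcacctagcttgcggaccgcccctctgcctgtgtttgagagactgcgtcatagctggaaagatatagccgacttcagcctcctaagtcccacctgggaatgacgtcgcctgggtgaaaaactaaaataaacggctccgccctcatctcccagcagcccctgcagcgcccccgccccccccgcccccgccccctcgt
Dnajc17: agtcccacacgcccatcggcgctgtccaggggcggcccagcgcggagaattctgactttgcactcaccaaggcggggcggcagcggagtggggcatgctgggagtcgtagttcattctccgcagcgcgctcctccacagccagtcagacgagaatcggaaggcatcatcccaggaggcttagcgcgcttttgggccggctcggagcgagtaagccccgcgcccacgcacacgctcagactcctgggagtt
These windows lie at chr1:55087898-55088147, chr2:34771840-34772089, chr10:86705445-86705694, chr14:118937682-118937931, chr1:75236173-75236422 and chr2:119208796-119209045 respectively, with Hsp90b1 and Dnajc17 on the minus strand and the others on the plus strand.

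RefSeq windows of 300 bases, running from 250 before to 50 after each TSS, were found for 62 of the 78 genes, 79 windows in all. The genes without one were Hsf1, Hsf4, Hsp90aa1, Hsp90ab1, Hspa8, Hspa9, Hspa13, Hspb2, Dnajc2, Dnajc5, Dnajc5b, Dnajc11, Dnajc12, Dnajc18, Dnajc22 and Dnajc30, so the motif counts do not cover them. The heat shock element was found in 6 of the 79 windows, or 7.59%, against 0.603% of all 32851 mouse windows. The windows that held it belonged to Dnajb6, Hspd1, Hspe1 and Hsph1. Windows can overlap, so 1 site can be counted more than once. The Dnajb6 windows held the same match at chr5:29735852-29735864, and the Hsph1 windows the same match at chr5:149636288-149636300. At Hspd1 and Hspe1, which face away from each other across 1 shared promoter, 2 overlapping matches between chr1:55088059 and chr1:55088076 lay upstream of Hspe1 and of 1 of the 2 RefSeq starts of Hspd1, and inside Hspd1 as counted from its other, outer start. The ER stress response element was found in 3 windows, or 3.797%, against 0.119% of all windows, and these were the windows of Hspa5, Hsp90b1 and Dnajc3, all of them ER chaperone genes. Hsp90b1 held 2 such matches on opposite strands. CCAAT was found in 41.8% of the chaperone windows and 37.4% of all windows, TATAAA in 5.06% and 13.6%, and TGACGTCA in 1.27% and 1.79%. A match is a run of letters, and binding was not measured.

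The median chaperone promoter region was 1293 bp long with a GC content of 59.4%, against 58.0% for all protein-coding promoter regions, and the median signal per length was 33.6 CPM per kb over all 7 samples against 22.3 CPM per kb for all protein-coding promoter regions. The level per kb ranged from 4.96 CPM at Hspb2, which encodes a muscle small heat shock protein, to 90.5 CPM at Dnajc17. After Dnajc17, the highest levels were those of Hspb11 with 78.0 CPM per kb and Dnajb1, the main cytosolic J-domain partner of HSP70, with 74.96 CPM per kb. The lowest after Hspb2 were Hspa12b with 6.43 and Dnaja4 with 6.44 CPM per kb. Of the 69 regions, 21 also served the promoter of another protein-coding gene, for example Bop1 at Hsf1, Tecr at Dnajb1 and Zfyve19 at Dnajc17, so these values cannot be given to 1 gene alone. Hspa1a and Hspa1l shared 1 region. At 95% identity or more, the region of Hspa1b matched another place in the genome over 48.8% of its length. That of Hspa1a and Hspa1l did so over 62.8% and that of Hspb1 over 32.5%. The study's methods kept only reads of high mapping quality, so reads that fit more than 1 place could have been dropped or split. Counts of these regions, among them the duplicated stress-inducible HSP70 genes, are therefore uncertain.

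The question was whether the accessibility of chaperone promoters differed with age. In aged liver, the promoter regions of Dnajc17, Hspa13 and Dnajb2 were more accessible and that of Dnajc11 was less accessible, while the other 65 regions did not pass the threshold. The test was edgeR's quasi-likelihood test over all regions with Benjamini-Hochberg adjustment, at an adjusted p below 0.05. At this threshold 5.74% of all regions were called in either direction, and 5.80% of chaperone promoter regions. The 3 more accessible regions made up 4.35% of the chaperone regions against 4.54% of protein-coding promoter regions, and the 1 less accessible region 1.45% against 1.82%. The share of chaperone promoters called was thus near that of promoters at large. At an unadjusted p below 0.05, 20 chaperone regions were higher, or 29.0%, against 23.9% of protein-coding promoter regions, and 8 lower, or 11.6%, against 8.79%.

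**Figure D1:**
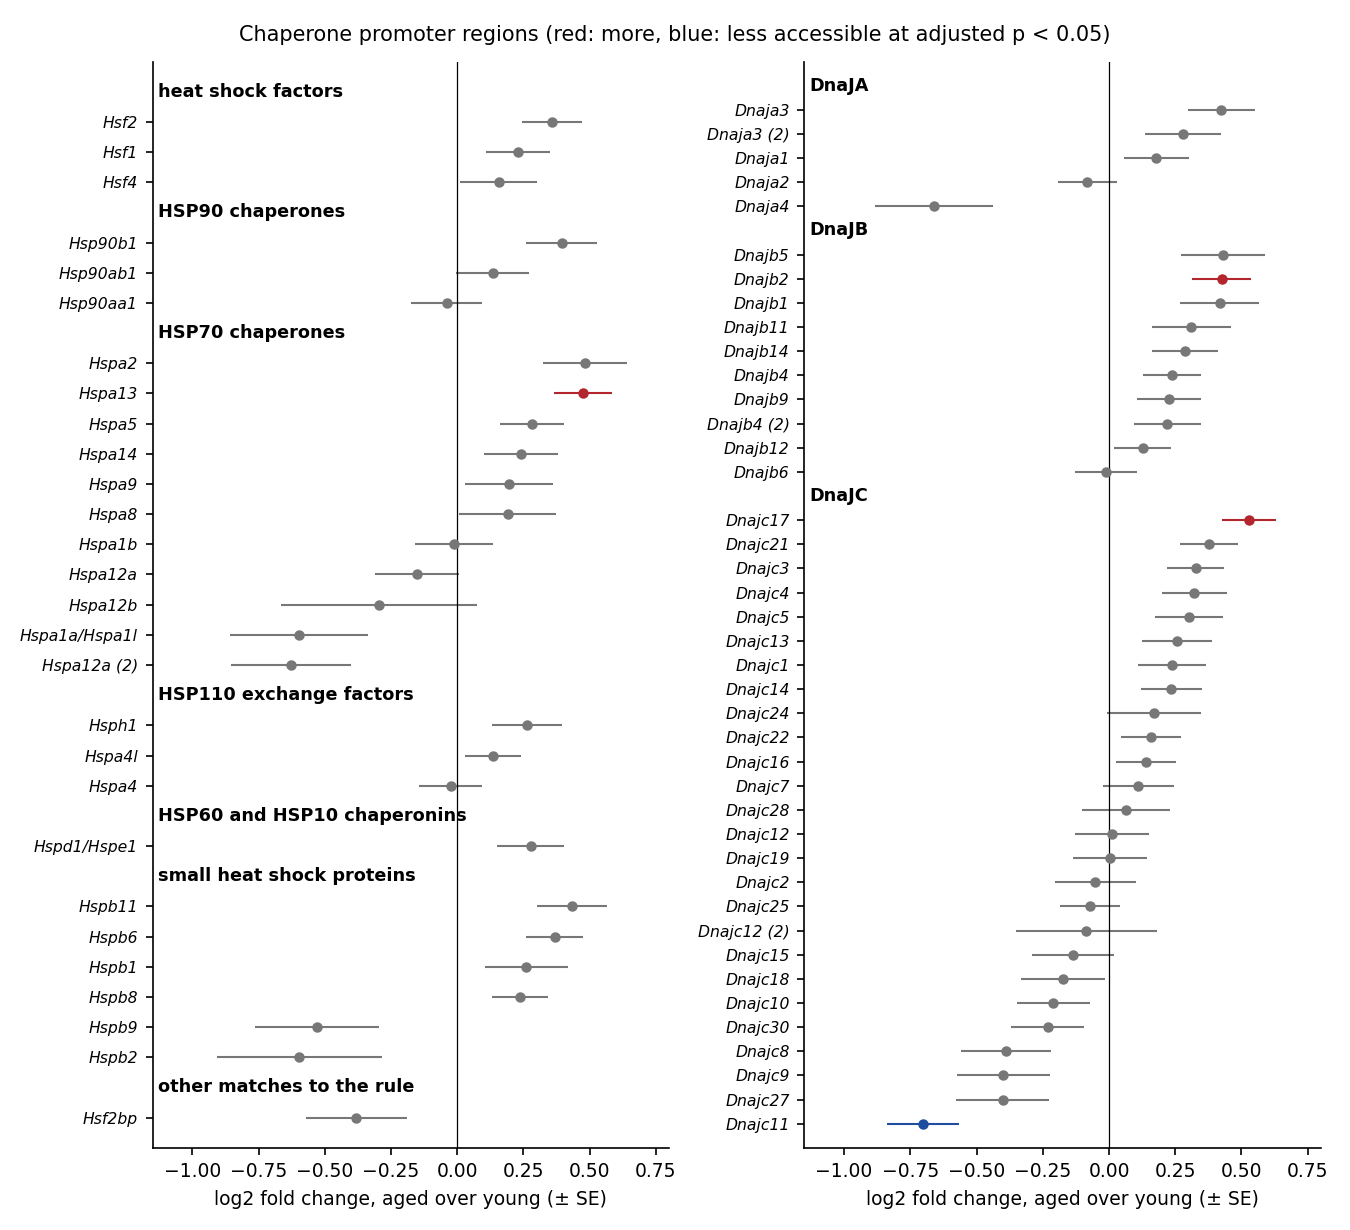
Log2 fold change of each of the 69 chaperone promoter regions (x axis, aged over young, with its standard error), grouped by protein class. Red points passed the threshold as more accessible (Dnajc17, Hspa13 and Dnajb2) and the blue point as less accessible (Dnajc11), grey points did not pass it, and "(2)" marks the weaker of a gene's 2 regions.

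Dnajc17, which encodes a nuclear J-domain protein with an RNA recognition motif, had its region at chr2:119208255-119209258 and shared it with Zfyve19. Its level was 75.7, 72.0 and 69.9 CPM in the young samples and 105.6, 100.03, 108.1 and 104.9 CPM in the aged samples. Every aged sample was above every young sample, and the spread within each age was small. The log2 fold change was 0.53 ± 0.10 (SE, n = 3 and 4), with an edgeR adjusted p of 0.0143.

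Hspa13 encodes an ER-associated HSP70 that lacks the usual peptide-binding domain, and its region lay at chr16:75766550-75767725. It gave 70.8, 64.1 and 75.5 CPM in young liver and 104.0, 95.1, 92.0 and 97.0 CPM in aged liver. The groups did not overlap. The log2 fold change was 0.47 ± 0.11 (SE), with an edgeR adjusted p of 0.0251.

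Dnajb2 encodes a J-domain protein that binds ubiquitinated clients, and its region lay at chr1:75235968-75237206. The young samples held 40.2, 42.3 and 36.0 CPM and the aged samples 57.1, 53.9, 51.1 and 50.8 CPM. Again every aged sample was higher. The log2 fold change was 0.43 ± 0.11 (SE), and the edgeR adjusted p was 0.0407. The call was lost in 6 of the 7 fits that left out 1 sample, all but that without aged replicate 4, with an adjusted p of up to 0.117, and in 5 of the 6 ways of summing 2 aged samples as 1 animal, with up to 0.0839.

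Dnajc11 encodes a J-domain protein of the mitochondrial outer membrane that is linked to the organisation of cristae, and its region lay at chr4:151933231-151934669. Levels were 34.2, 30.8 and 31.1 CPM in young samples against 21.7, 16.9, 18.2 and 21.3 CPM in aged samples. Every aged sample was lower. The log2 fold change was -0.70 ± 0.14 (SE), with an edgeR adjusted p of 0.0146. This was the largest drop among the 69 regions and the only one past the threshold.

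**Figure D2:**
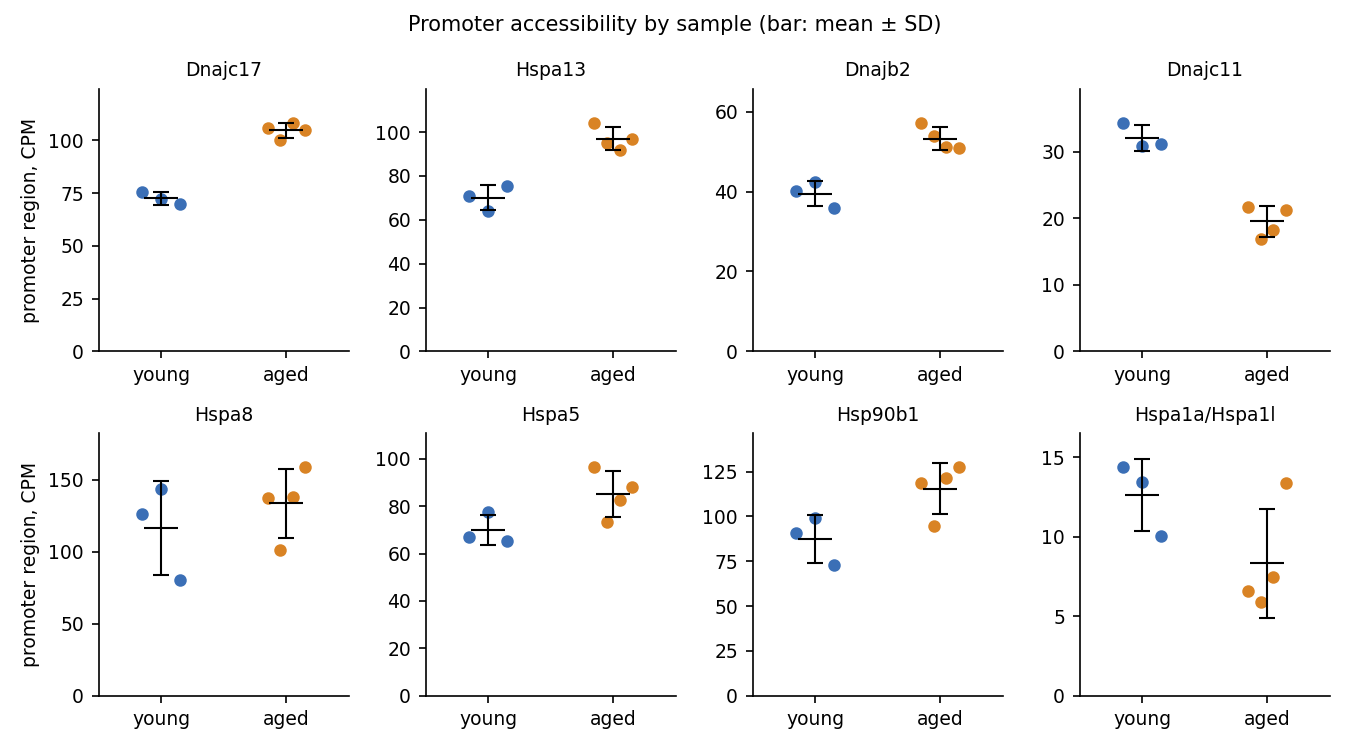
Promoter accessibility of 8 chaperone genes in each sample (y axis, CPM from 0), with points for the 3 young (blue) and 4 aged (orange) samples and bars for the mean and SD. The upper row holds the 4 genes past the threshold, whose ages do not overlap, and the lower row 4 chaperone genes whose ages overlap.

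These calls depended on single libraries. With aged replicate 1 left out, Dnajc11 alone was called; with aged replicate 3, young replicate 1 or young replicate 2 left out, no chaperone promoter region was called, and the adjusted p of Dnajc17 then lay between 0.0533 and 0.0672. Dnajc11 and Dnajc17 stayed called in all 6 ways of summing 2 aged samples, and Hspa13 in all but that of aged replicates 1 and 3, with an adjusted p of 0.0578. The number of calls over all regions also dropped in those fits, from 3198 to between 188 and 651. Scaling also moved the calls: total-count scaling moved the median of all regions from -0.04 to -0.15 and gave 1 higher and 1 lower chaperone region, whereas offsets fitted on mean signal gave 0 higher and 1 lower. In these 2 fits 1.51 and 0.160% of protein-coding promoter regions were called higher.

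Taken region by region, the ages did not overlap at 20 of the 69 chaperone promoters. All aged samples were higher at 14 regions, or 20.3%, against 21.4% of protein-coding promoter regions, and lower at 6 regions, or 8.70%, against 8.62%. Beside Dnajc17, Hspa13 and Dnajb2, regions with every aged sample higher included those of Hsf2, Dnaja3, Dnajb5, Dnajc3, Hspb11 and Hspb6. Those with every aged sample lower were at Dnajc11, Dnaja4, Dnajc8, Dnajc9, Dnajc27 and Dnajc30. DESeq2 called 10 regions higher, or 14.5%, against 10.4% of protein-coding promoter regions, adding Dnaja3, Dnajc3, Dnajc21, Hsf2, Hspa2, Hspb6 and Hspb11 to the same 3 genes, and again 1 lower.

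Among the heat shock factors, none of 3 regions passed the threshold, and all 3 fitted values were above 0. Hsf1 gave 36.6 ± 2.91 CPM (SD, n = 3) in young and 43.1 ± 4.44 CPM (n = 4) in aged liver, with a log2 fold change of 0.23 ± 0.12 (SE) and an edgeR adjusted p of 0.256. Hsf2, whose product can form mixed trimers with HSF1, gave 57.5 ± 3.88 and 73.9 ± 7.38 CPM (SD). Its groups did not overlap, with a log2 fold change of 0.36 ± 0.11 (SE) and an adjusted p of 0.0757. Hsf4, known for its role in the lens, had the smallest fitted difference of the 3, 0.16 ± 0.15 (SE). Hsf2bp, which the symbol rule also took and which encodes a meiotic HSF2-binding protein, stood at -0.38 ± 0.19 (SE).

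None of the 3 HSP90 regions passed the threshold. The ER paralogue Hsp90b1 (GRP94) gave 90.5, 99.1 and 73.0 CPM in young samples and 118.6, 94.7, 121.2 and 127.3 CPM in aged samples. Aged replicate 2 fell among the young values, and the other aged samples were above all of them. The log2 fold change was 0.39 ± 0.13 (SE), with an adjusted p of 0.0910. The cytosolic paralogues stood closer to 0, with 0.13 ± 0.14 (SE) at the constitutive Hsp90ab1 and -0.04 ± 0.13 (SE) at the stress-inducible Hsp90aa1.

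Of 11 HSP70 regions, 1 passed the threshold. Hspa8, the constitutive cytosolic HSP70, had the highest signal of the class at 126.4, 143.3 and 80.2 CPM in young samples and 137.4, 101.0, 137.7 and 158.5 CPM in aged samples. Young replicate 3 and aged replicate 2 were the lowest of their groups, young replicate 2 lay above 3 of the aged samples, and the log2 fold change was 0.19 ± 0.18 (SE). Hspa5 (BiP), the main ER HSP70, gave 67.2, 77.4 and 65.3 CPM in young and 96.4, 73.4, 82.6 and 87.9 CPM in aged liver. Aged replicate 2 lay within the young range, and the log2 fold change of 0.28 ± 0.12 (SE) had an adjusted p of 0.164. Hspa9 (mortalin), the mitochondrial HSP70, stood at 0.20 ± 0.17 (SE), and Hspa2, the HSP70 known from testis, had the highest fitted value of the class at 0.48 ± 0.16 (SE) with an adjusted p of 0.0829.

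The stress-inducible HSP70 genes had fitted values at or below 0, and neither region passed the threshold. The Hspa1a and Hspa1l region gave 14.3, 13.5 and 10.03 CPM in young samples and 6.59, 5.88, 7.47 and 13.4 CPM in aged samples. Aged replicates 1 to 3 were below all young samples and aged replicate 4 was among them. The log2 fold change was -0.60 ± 0.26 (SE), with an adjusted p of 0.176. With aged replicate 4 left out, this region and that of Hspb9 were called less accessible. Hspa1b gave 29.8 ± 2.45 and 29.6 ± 5.22 CPM (SD), a log2 fold change of -0.01 ± 0.15 (SE). The weaker of 2 regions of Hspa12a, a distant HSP70 relative, had the lowest fitted value of the class at -0.63 ± 0.23 (SE).

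In the HSP110 and chaperonin classes no region passed the threshold. Hsph1 stood at 0.26 ± 0.13 (SE) and Hspa4 at -0.03 ± 0.12 (SE), the highest and the lowest of the 3 HSP110 genes. The shared promoter of Hspd1 and Hspe1, which encode the mitochondrial chaperonin HSP60 and its lid HSP10, gave 74.9 ± 11.4 CPM (SD) in young and 91.2 ± 8.04 CPM in aged liver. Its log2 fold change was 0.28 ± 0.13 (SE), with an adjusted p of 0.190.

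None of 6 small heat shock protein regions passed. Hspb11, an intraflagellar transport component despite its symbol, was highest at 0.43 ± 0.13 (SE) with an adjusted p of 0.0688, and Hspb2 lowest at -0.60 ± 0.31 (SE) on 2.10 to 6.11 CPM. Hspb1 (HSP25), a classic HSF1 target, stood at 0.26 ± 0.16 (SE).

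Among J-domain genes, 4 DnaJA genes gave 5 regions with no call, 9 DnaJB genes gave 10 regions with 1 call, and 25 DnaJC genes gave 26 regions with 1 call in each direction. DnaJB genes encode type B proteins, many of them linked to stress, and 9 of the 10 regions had a fitted value above 0, as did 62.4% of protein-coding promoter regions. The highest was Dnajb5 at 0.43 ± 0.16 (SE), just above Dnajb2 and then Dnajb1 at 0.42 ± 0.15 (SE), and the lowest was Dnajb6 at -0.01 ± 0.12 (SE). Dnajb1 gave 74.0 ± 15.6 CPM (SD) in young and 99.3 ± 12.8 CPM in aged liver, where 1 aged sample lay within the young range. Among DnaJA genes, the mitochondrial Dnaja3 was highest at 0.42 ± 0.13 (SE) with an adjusted p of 0.0604. That region is shared with Vasn and lies at the start of a processed transcript, while the region at the start of the protein-coding transcripts of Dnaja3 gave 0.28 ± 0.14 (SE) with an adjusted p of 0.251. Dnaja1, a farnesylated HSP70 partner, stood at 0.18 ± 0.12 (SE), and Dnaja4 was lowest at -0.66 ± 0.22 (SE) with an adjusted p of 0.0900. DnaJC genes, whose products share only the J domain, spread most widely, from Dnajc11 to Dnajc17, with 15 of 26 fitted values above 0. In the classes without a call by edgeR, an unadjusted p below 0.05 was reached as higher by 1 of 3 heat shock factor regions, 1 of 3 HSP90 regions, the 1 chaperonin region, 3 of 6 small heat shock protein regions and 1 of 5 DnaJA regions, against 23.9% of protein-coding promoter regions. It was reached as lower by 1 small heat shock protein region and 1 DnaJA region, against 8.79%, and by none of 3 HSP110 regions in either direction. DESeq2 called Hsf2, Hspb6, Hspb11 and Dnaja3 among these and no HSP90, HSP110 or chaperonin region.

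The chaperones of the ER had 11 genes and 11 regions, of which Hspa13 was called higher and none lower, and 9 fitted values were above 0. Over protein-coding promoter regions, 4.54% were called higher, 1.82% lower and 62.4% had values above 0. At an unadjusted p below 0.05, 5 of the 11 were higher and none lower, against 23.9 and 8.79%. The median log2 fold change of the list was 0.28, beside 0.10 for protein-coding promoter regions. By signal, the middle region of the list was that of Dnajb11, at 6.07 log2 CPM. Protein-coding promoter regions in the bin of signal with a median of 6.01 log2 CPM also had a median log2 fold change of 0.28. Dnajb11 and Dnajc3, the BiP cofactors ERdj3 and p58IPK, stood at 0.31 ± 0.15 and 0.33 ± 0.11 (SE), and Dnajb9 (ERdj4) at 0.23 ± 0.12 (SE). The 2 ER genes below 0 were Dnajc10, an ER reductase with a J domain, and Dnajc18. The 3 genes with an ER stress response element, Hspa5, Hsp90b1 and Dnajc3, did not pass the threshold. Chaperones of the mitochondria gave 10 regions for 10 genes, with Dnajc11 called lower, none called higher, 7 values above 0 and a median of 0.13. Unadjusted p was below 0.05 at 3 higher and 1 lower of these, and the ages were apart at 2 higher and 2 lower. The 10 regions of 11 textbook HSF1 target genes gave no call, 7 values above 0, a median of 0.18 and overlap between the ages at every region, where 21.4% of protein-coding promoter regions had every aged sample higher and 8.62% every aged sample lower. Unadjusted p was below 0.05 at 2 higher and 1 lower of the 10, and DESeq2 called none. These directions depended on scaling. With offsets fitted on mean signal the median was 0.01 for the ER list with 6 of 11 values above 0, -0.03 for the mitochondrial list with 4 of 10, -0.12 for the HSF1 targets with 3 of 10 and 0.02 for the DnaJB regions with 6 of 10, and protein-coding promoter regions had a median of -0.03.

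**Figure D3:**
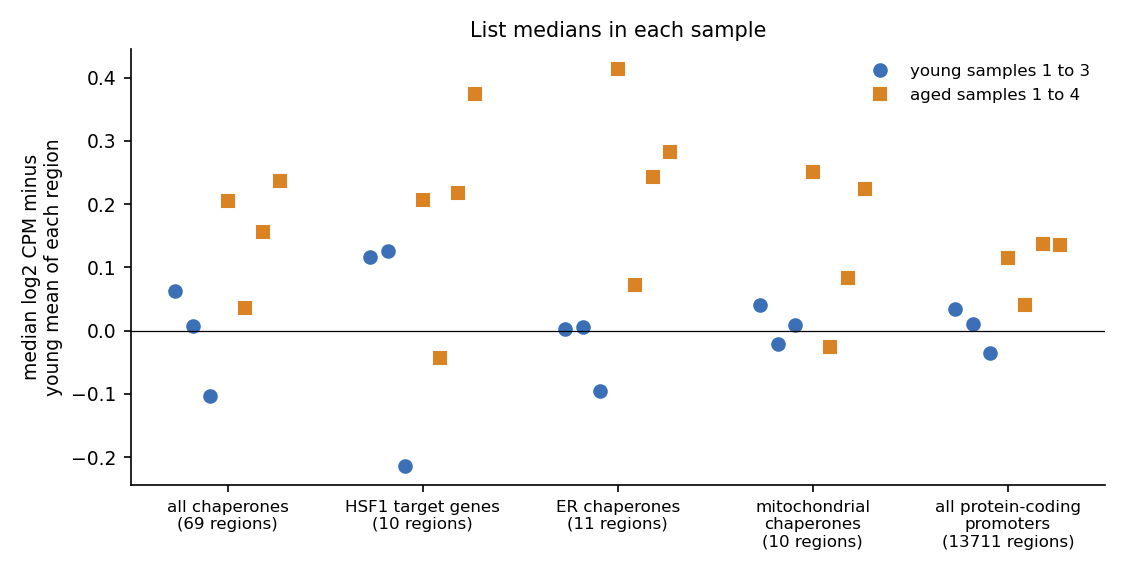
Median over the regions of each list of the difference in log2 CPM from the young mean of the same region (y axis), shown for each young (blue circles) and aged (orange squares) sample. Young replicate 3, at -0.21, and aged replicate 2, at -0.04, stand low for the HSF1 target genes, and all 4 aged samples stand above all young samples for the ER chaperones.

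Among the lists compared, sample medians within an age spread most at the HSF1 target genes, a list of only 10 regions. The list median, relative to the young mean, was 0.12, 0.13 and -0.21 in the young samples and 0.21, -0.04, 0.22 and 0.37 in the aged samples. Young replicate 3 was the lowest young sample at 9 of the 10 regions, or 90%, and at 42 of all 69 chaperone promoters, or 60.9%, against 47.4% of protein-coding promoter regions. Aged replicate 2 was the lowest aged sample at 7 of the 10, against 43.3% of protein-coding promoter regions, and aged replicate 4 the highest at 7 of the 10, against 36.3%. For the ER chaperones the same medians were 0.00, 0.01 and -0.10 in young and 0.41, 0.07, 0.24 and 0.28 in aged samples, so that no aged sample overlapped the young ones. Over all protein-coding promoter regions the medians ran from -0.04 to 0.03 in young and from 0.04 to 0.14 in aged samples. Young replicate 3 and aged replicate 2 were also among the less deeply sequenced, with 5709327 and 5108283 counts beside 4474652 in aged replicate 3, the shallowest. The part of depth was not tested.

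The sign of the age difference followed the strength of the promoter. With the 69 regions split by signal into 3 sets of 23, all 23 of the strongest set had fitted values above 0, with a median log2 fold change of 0.28, whereas in the weakest set 5 of 23 were above 0, with a median of -0.23. The middle set had 17 of 23 above 0 and a median of 0.24. Protein-coding promoter regions in the same ranges of signal had medians of 0.31, -0.14 and 0.19 for the strongest, weakest and middle set, with 97.2, 31.9 and 86.0% of values above 0. Across the 69 regions Spearman's rho between the mean log2 CPM and the log2 fold change was 0.72, and across the 13711 protein-coding promoter regions it was 0.69. Both quantities come from the same counts, and regions are not independent. Over the whole list the median was 0.17, with 45 of 69 values above 0, beside 0.10 for protein-coding promoter regions and -0.04 for all regions. With offsets fitted on mean signal, 28 of the 69 values were above 0 and the median was -0.03.

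**Figure D4:**
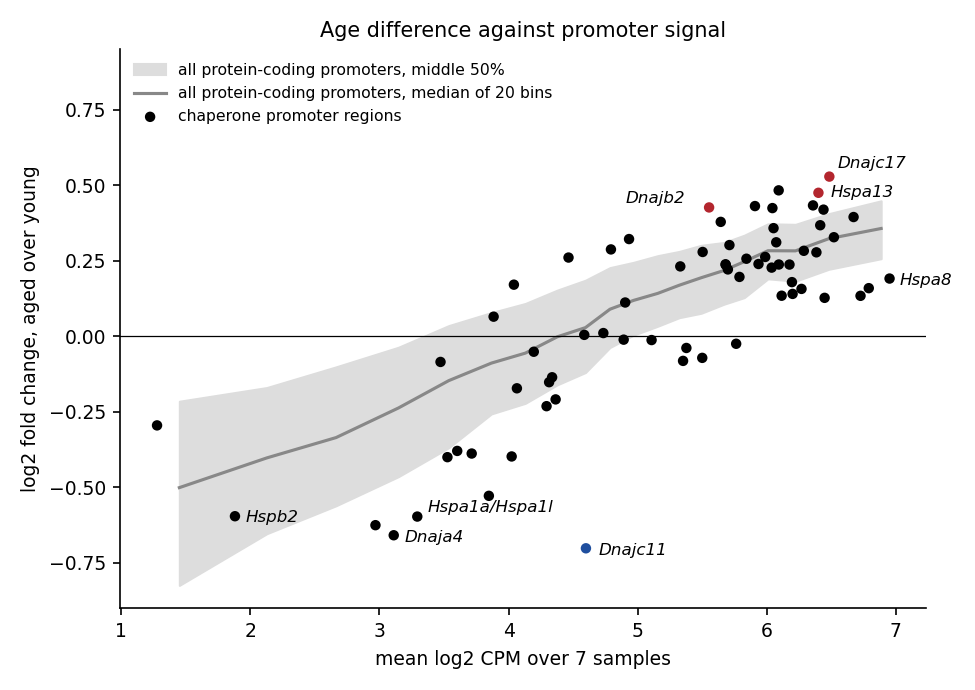
Log2 fold change, aged over young (y axis), against the mean log2 CPM over 7 samples (x axis) for the 69 chaperone promoter regions (points, red and blue as called), with the median (line) and middle 50% (band) of 13711 protein-coding promoter regions in 20 bins of signal. The chaperone points rise with the line, the 3 red points lie above the band and Dnajc11 lies well below it.

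Promoters of 45 protein-coding co-chaperone genes outside the heat shock and DnaJ families were examined in the same fit, and these had 52 regions. Only Bag3, a nucleotide exchange factor of HSP70 that takes part in selective autophagy, passed the threshold, at chr7:128523036-128525002. This was 1.92% of the 52 regions, against 4.54% of protein-coding promoter regions called higher. It gave 64.4, 66.1 and 67.6 CPM in young samples and 86.4, 88.6, 94.5 and 83.9 CPM in aged samples. Every aged sample was above every young sample, with a log2 fold change of 0.42 ± 0.10 (SE) and an edgeR adjusted p of 0.0323. Without aged replicate 1 or 3 or young replicate 1 or 2 the call was lost, with an adjusted p between 0.0827 and 0.117. DESeq2 called 7 of the 52 higher, where it called 10.4% of protein-coding promoter regions higher, and neither tool called any lower. At an unadjusted p below 0.05, 15 were higher and 3 lower, beside 23.9 and 8.79% of protein-coding promoter regions, and the median log2 fold change was 0.18, close to that of the chaperone regions.

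Regions inside the annotated bodies of chaperone genes that overlapped no TSS window numbered 80, in 36 genes. Of these, 1 was called more accessible, or 1.25%, against 1.46% of gene body regions of all protein-coding genes, and 4 less accessible, or 5.0%, against 3.35%. Lower calls outnumbered higher ones over all gene body regions too, with 782 against 342. The regions called lower belonged to Hspa8, Hsp90ab1, Dnaja1 and Dnajc13, the last on 0.785 to 3.44 CPM within an intron, and the region called higher to Dnajc7, a cytosolic cofactor that links HSP70 and HSP90. The Dnajc13 call was lost with DESeq2, at an adjusted p of 0.0792, and in 5 of the 7 fits that left out 1 sample, with a log2 fold change of -1.02 and an adjusted p of 0.255 without young replicate 2. The Dnajc7 call was lost in 5 of the 7 as well, all but those without aged replicate 2 or young replicate 3, at up to 0.166. With 2 aged samples summed as 1 animal, the Dnajc7 call held only for replicates 2 and 4, with an adjusted p of up to 0.0912 otherwise. The Dnajc13 call held only for replicates 1 and 4 or 2 and 4, with up to 0.0772 otherwise. The median log2 fold change of the 80 regions was -0.19, against -0.10 for all such regions.

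At Hspa8, Hsp90ab1 and Dnaja1, the less accessible region lay at or past the 3′ end of the gene as RefSeq gives it. Hspa8 had its region at chr9:40806380-40808460, starting 1178 bp past the RefSeq end, with 34.3, 61.3 and 36.5 CPM in young samples and 24.4, 18.6, 24.98 and 16.9 CPM in aged samples. Every aged sample was lower, with a log2 fold change of -1.07 ± 0.20 (SE) and an edgeR adjusted p of 0.0139. Young replicate 2 was the highest sample, and without it the log2 fold change was -0.74 and the adjusted p 0.0649, while the call held in the fits that left out any of the others. Relative to the promoter region of the same gene, the 3′ region held 27.2, 42.8 and 45.5% of the signal in young samples and 17.8, 18.4, 18.1 and 10.7% in aged samples, so the ages were apart by this ratio as well.

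The Hsp90ab1 region, at chr17:45566384-45567783, began in the last bases of Hsp90ab1 and ran past its 3′ end into the end of Slc35b2, so it cannot be given to 1 gene. It gave 36.6, 41.8 and 31.2 CPM in young and 19.5, 16.1, 25.7 and 19.98 CPM in aged samples. No sample overlapped, and the log2 fold change was -0.86 ± 0.16 (SE), with an edgeR adjusted p of 0.0129. Its signal was between 34.5 and 37.9% of that of the Hsp90ab1 promoter in young samples and between 14.6 and 22.9% in aged samples. The Dnaja1 region, at chr4:40735216-40736210 and 251 bp past the RefSeq end, gave 7.22, 8.92 and 10.5 CPM in young and 4.22, 3.92, 5.84 and 1.78 CPM in aged samples. Here too all aged samples were lower, with a log2 fold change of -1.20 ± 0.31 (SE) and an adjusted p of 0.0380. The Hsp90ab1 call was lost without aged replicate 1, young replicate 1 or young replicate 2, at an adjusted p between 0.0505 and 0.0649, and the Dnaja1 call was lost without any sample other than aged replicate 4, at up to 0.111. The Dnaja1 call was also lost with aged replicates 1 and 2, 1 and 3 or 2 and 3 summed, at an adjusted p of up to 0.0590.

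**Figure D5:**
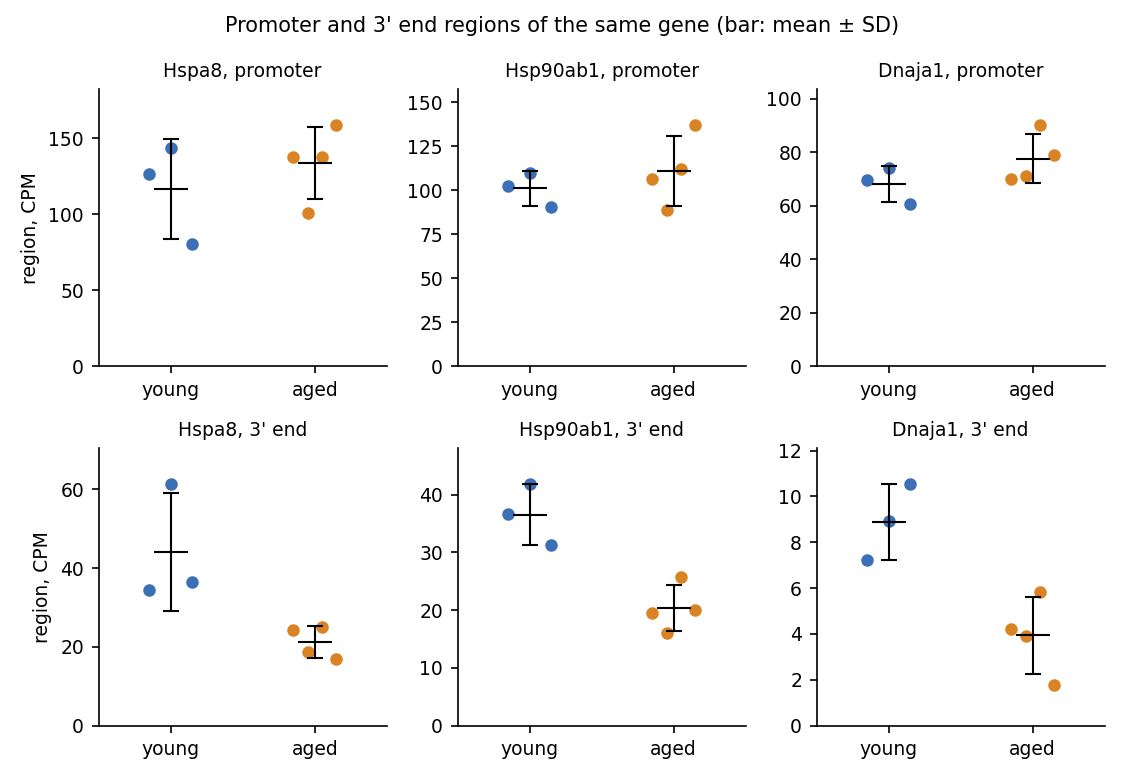
Signal of the promoter region (upper row) and of the region at or past the 3′ end (lower row) of Hspa8, Hsp90ab1 and Dnaja1 in each sample (y axis, CPM from 0, own scale per panel), with bars for the mean and SD. The promoter levels of young (blue) and aged (orange) samples overlap, and the 3′ levels do not.

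Regions past gene ends were then collected for all protein-coding genes, as any region that overlapped no TSS window and reached into the 3000 bp after the RefSeq end. The list was made after the values of those 3 genes had been seen, so its count is a description and carries no test. It held 19 regions of 18 chaperone genes, of which 6 were called less accessible in aged liver, or 31.6%, against 8.97% of 2542 such regions of all protein-coding genes, and none more accessible. DESeq2 called 6 lower and 0 higher, with 9.48% of the 2542 lower, and at an unadjusted p below 0.05 1 region was higher, against 5.04% of the 2542, and 10 lower, or 52.6% against 28.7%. The median log2 fold change was -0.72 for the 19 regions and -0.26 for the 2542. Beside Hspa8, Hsp90ab1 and Dnaja1, the regions called lower were at Hspb8, Dnajc25 and Dnajb13, the last lying within the neighbouring gene Ucp2.

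The Hspb8 region, at chr5:116406010-116406324, gave 5.28, 4.99 and 4.93 CPM in young samples and 0.615, 0.785, 2.33 and 1.91 CPM in aged samples, on 4 to 15 counts in the aged samples. Its log2 fold change was -1.94 ± 0.38 (SE), with an edgeR adjusted p of 0.0150. The Dnajc25 region had a log2 fold change of -1.68 ± 0.31 (SE), on 6 to 16 counts in aged samples, and the Dnajb13 region one of -1.07 ± 0.28 (SE). The Dnajb13 call was lost in 6 of the 7 fits that left out 1 sample, all but that without aged replicate 4, at an adjusted p of up to 0.162, and in 3 of the 6 ways of summing 2 aged samples. The regions past Hspa5 and Hsp90b1, the ER chaperones, stood at -0.26 ± 0.32 and -0.38 ± 0.35 (SE), and the regions at the ends of Dnajb11 and Dnajb12 at 0.17 ± 0.14 and 0.28 ± 0.12 (SE). Without young replicate 2 none of the 19 was called, and without young replicate 1 or aged replicate 1 there was 1 call, while the share among the 2542 regions was then 1.46, 0.669 and 1.34%. The median of the 19 stayed between -0.76 and -0.63 in the fits that left out 1 sample.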

How the data were processed

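ATAC-seq libraries of mouse liver nuclei were made with the Omni-ATAC protocol. Per the labels, the submitters' processing used cutadapt 1.13, Bowtie2 2.4.1, MACS2 2.2.7 and featureCounts on GRCm38. The deposited table holds raw counts per sample over consensus regions that the authors derived from peaks, with no normalization, so a promoter without a region may still hold signal below the peak threshold. Promoters were regions overlapping a GENCODE M21 TSS ± 200 bp, with coordinates as in the table. TMM factors, CPM and log2 CPM (prior count 2) were computed with edgeR 4.0.16 in R 4.3.3. All 55680 regions were fitted without a filter, with age as the only term, and tested by glmQLFTest at an adjusted p of 0.05. The procedure was tested on simulated data. Alternatives were DESeq2 1.42.0, limma 3.58.1 (voom), total-count scaling, offsets by loess (span 0.3) on mean signal or GC content, count filters, a replicate block, each sample left out, and the 6 ways of summing 2 aged samples as if from 1 animal.

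The genes and lists were chosen with earlier results of these data known. Genes named were those past the threshold, the textbook chaperones of each class, the highest and lowest fold change in each class, the 3 highest and 3 lowest per kb, genes without a region, and co-chaperones past the threshold. For a gene with several regions the strongest stands for it. The regions past gene ends, and gene body regions past the threshold, were named after their values were seen. Depth of 4474652 to 25461110 counts limits precision at weak regions. Near-identical copies were searched with minimap2 2.31. Same-numbered samples did not deviate together. Cct6a of the co-chaperone list, annotated as a processed transcript and not as protein-coding, was not analysed here.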

Additional observations from a re-analysis of the deposited data

Results flagged for a closer look

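At Hspa12b, which encodes a distant HSP70 relative of endothelial cells, aged replicate 4 stood far from the other aged samples. Its level was 1.96 log2 CPM, against 0.82 to 0.96 in the other 3, and the gap took up 0.872 of the range of the 4, above Dixon's 95% critical value for 4 samples. The aged counts there were 20, 8, 7 and 29 in replicate order, and 7 was the lowest count at any chaperone promoter region. The young samples ran from 0.88 to 1.78 log2 CPM. This was 1 of 34 named regions examined, and chance flags about 1 in 20 groups.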

How the results depend on the processing

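The number of higher calls at chaperone promoters varied with the fit. Against 3 with edgeR, DESeq2 gave 10, voom 8, GC offsets 13, total-count scaling 1 and offsets on mean signal 0. Over protein-coding promoter regions the share called higher was 4.54% with edgeR, 10.4% with DESeq2, 8.15% with voom and 14.8% with GC offsets. It was 1.51% with total-count scaling and 0.160% with offsets on mean signal. Summing aged samples 1 and 3 gave 1 higher chaperone call and samples 2 and 4 gave 7. A threshold of 0.01 left 0 higher and 0 lower. Leaving out 1 sample gave 0 to 4 higher and 0 to 3 lower, with 0.102 to 5.75% of protein-coding promoter regions called higher. The median log2 fold change was 0.055 with total-count scaling and -0.034 with offsets on mean signal, and 0.13 to 0.19 with 1 sample left out. The cause was not tested.

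The count of co-chaperone promoters called higher, 1 with edgeR, was 7 with DESeq2, 7 with voom, 8 with GC offsets, 0 with total-count scaling, with offsets on mean signal, with at least 10 counts in every sample and at 0.01, 2 with aged 1 and 2 summed, 6 with 2 and 4, 0 with 1 and 3, 2 and 3 or 3 and 4, and 0 to 6 with 1 sample left out. Of protein-coding promoter regions, 1.38% were called higher with the filter of 10 counts. With aged 1 and 2, 2 and 3 or 3 and 4 summed the share was 3.53, 2.17 and 1.86%. For gene body regions, the count of 1 higher call became 3 with DESeq2, 2 with voom, 3 with GC offsets, 2 with aged 2 and 4 summed, and 0 with aged 1 and 2 or 1 and 3 summed, total-count scaling, the filter of 10 counts or a threshold of 0.01, and 0 to 1 with 1 sample left out. Dnajc7 itself was also not called with aged 1 and 4, 2 and 3 or 3 and 4 summed, at an adjusted p of 0.0617 to 0.0669. The 4 lower calls became 2 with offsets on mean signal and with aged 1 and 2, 1 and 3 or 2 and 3 summed, 0 at 0.01, and 0 to 6 with 1 sample left out. Past gene ends, the 6 lower calls of 19 regions became 3 with offsets on mean signal. The share of all 2542 such regions then fell from 8.97 to 3.11%. Within 1000 bp the list held 10 regions, of which 2 were called lower, against 8.69% of 1312. With 1 sample left out there were 0 to 7 lower calls, beside 0.669 to 10.7% of the 2542.

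The replicate numbers do not pair the samples (correlations of deviations -0.12 to 0.06). With the number as a replicate block, the chaperone promoters gave 3 higher and 4 lower, the co-chaperone promoters 3 higher and the gene bodies 0 higher. In that fit 3.17% of protein-coding promoter regions were called higher. Of the 13711, 395 were called lower, against 249 without the block. Of named regions, those that changed sign all lacked a call. With offsets on mean signal the log2 fold change became -0.098 at Dnaja1, -0.034 at Dnajb9, -0.018 at Hspd1 and Hspe1, 0.047 at Hspa12b, -0.0045 at Hspa5, -0.16 at Hspa8, -0.039 at Hspa9, -0.21 at Hsp90ab1 and -0.12 at Hsf4. Values near 0 crossed it elsewhere. Dnajb6 reached 0.016 with DESeq2, 0.018 with GC offsets, 0.0081 with aged 1 and 4 summed and 0.0097 with the replicate block, and ran from -0.054 to 0.025 with 1 sample left out. Hspa4 reached 0.0053 with DESeq2 and 0.013 with aged 1 and 2 summed, and ran from -0.077 to 0.047 with 1 sample left out. Hspa1b reached 0.0199 with DESeq2, 0.037 with GC offsets and 0.013, 0.034 and 0.022 with aged 1 and 2, 1 and 3, and 2 and 3 summed, and ran from -0.14 to 0.058 with 1 sample left out. Hsp90aa1 reached 0.0015 with aged 2 and 4 summed and ran from -0.11 to 0.048 with 1 sample left out. The 4 called promoters kept their sign in all 21 fits, with adjusted p from 0.000122 to 0.235 at Dnajc17, 0.0018 to 0.464 at Hspa13, 0.015 to 0.335 at Dnajb2 and 0.00268 to 0.0755 at Dnajc11. With offsets on mean signal the fold itself shrank at the higher calls, to a log2 fold change of 0.22 at Dnajc17, 0.18 at Hspa13, 0.22 at Dnajb2 and 0.13 at Bag3. The Hspa8 region past the gene end ranged from 0.000668 to 0.0649.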
